A study of Mus musculus with 3 samples.

Results

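Cathepsins are proteases that work mainly in the acid compartments of the cell, and 9 of their genes are described here out of 48709 genes in the deposited count table: Ctse, Ctss, Ctsb, Ctsd, Ctsl, Ctsh, Ctsz, Ctsc and Ctsk. The 9 were taken by symbol, and Ctse was selected on its measured level, chosen by its wide range between the libraries, so that range is given as a description with no test. The study sequenced RNA of sorted mouse lung cells in 3 libraries of 1 group, wild type (WT), labelled as smooth muscle cells, and no other condition was set against them. The mice carried a creERT2 transgene (a Cre recombinase that tamoxifen activates) under smooth muscle actin control, and the red fluorescent reporter tdTomato. Tamoxifen was injected at 75 mg/kg for 10 days at 8 weeks of age, and the lungs were taken 2 months later. The labels do not say whether the libraries came from separate mice, so every spread given here is the spread between these libraries and may be technical. The table names the libraries CTRL_1, CTRL_2 and CTRL_3.

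Most cathepsins are made as inactive precursors, carried to the lysosome by mannose 6-phosphate receptors and activated there by cleavage. Ctsd and Ctse encode aspartic proteases, and the other 7 genes encode papain-like cysteine proteases. Cathepsin D acts in the lysosome, whereas cathepsin E is mostly found outside it, in endosomes and other membrane compartments of gastric and other epithelia and of immune cells. Antigen-presenting cells use cathepsins S and L to trim the invariant chain from MHC class II molecules, macrophages are rich in cathepsins B and S, and alveolar type 2 cells use cathepsin H to process surfactant proteins.

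Library totals were 18896263 counts in CTRL_1, 18355813 in CTRL_2 and 16877297 in CTRL_3, and levels are given as counts per 1000000 counts of the library (CPM). The limit that a count of 0 allows, 3 counts, was 0.159 to 0.178 CPM. The 11 smooth muscle markers summed to 142, 190 and 157 CPM in CTRL_1, CTRL_2 and CTRL_3, with Acta2, the smooth muscle actin gene, at 11.2, 17.1 and 11.3 CPM and Cnn1, a contractile gene, at 0, 7 and 5 counts. Markers of other lung cells were abundant: the 12 genes of club and airway secretory cells summed to 14036, 3012 and 7988 CPM, the 8 B cell genes to 1079, 1568 and 1993 CPM, and the 16 macrophage and monocyte genes to 1028, 393 and 495 CPM. The marker and gate of the sort are not stated in the labels. All levels are of bulk RNA, in which fewer cells of a type and less RNA per cell cannot be told apart.

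Promoters were compared for the 6 cathepsin genes with an entry in the RefSeq table (build GRCm38.p6), namely Ctss, Ctsd, Ctsl, Ctsz, Ctsc and Ctsk. Ctss and Ctsk lie close together on chromosome 3, on the same strand, and are shown because their levels were the farthest apart of the 9. The 250 bases before the RefSeq start are printed 5′ to 3′, Ctss at chr3:95526536-95526785 and Ctsk at chr3:95498960-95499209, both on the plus strand. Capitals mark GAAANNGAAA, the core of the interferon-stimulated response element.
Ctss: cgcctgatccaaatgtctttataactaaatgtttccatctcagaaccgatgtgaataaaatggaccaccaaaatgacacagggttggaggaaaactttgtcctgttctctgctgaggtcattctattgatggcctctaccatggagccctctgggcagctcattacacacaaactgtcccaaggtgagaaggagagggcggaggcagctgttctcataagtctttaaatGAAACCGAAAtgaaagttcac
Ctsk: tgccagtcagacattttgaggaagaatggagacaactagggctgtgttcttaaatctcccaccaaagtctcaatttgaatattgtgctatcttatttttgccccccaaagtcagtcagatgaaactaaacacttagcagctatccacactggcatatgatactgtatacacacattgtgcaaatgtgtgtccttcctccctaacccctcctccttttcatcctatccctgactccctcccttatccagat
The motif was searched on both strands and was found in the Ctss promoter alone among the 6, at bases -21 to -12 from the start. Of 32851 promoters of the same length, 978 (2.98%) held it.

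The E-box CACGTG, a palindrome that the lysosomal regulator TFEB and other factors bind, was found only in the promoters of Ctsd and Ctsl among those compared. It was present in 1978 of the 32851 promoters (6.02%), and 141 promoters (0.429%) held at least 2 copies, as Ctsd did. The sites are shown with their flanks, with the E-box in capitals, all on the minus strand, at chr7:142388048-142388077 and chr7:142387908-142387937 for Ctsd and chr13:64370739-64370768 for Ctsl.
Ctsd, bases -245 to -240 in capitals: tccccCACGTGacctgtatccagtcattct
Ctsd, bases -98 to -93 in capitals: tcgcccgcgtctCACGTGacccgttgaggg
Ctsl, bases -236 to -231 in capitals: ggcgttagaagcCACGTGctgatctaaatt
Neither motif was found in these windows of Ctsz, Ctsc and Ctsk, and the E-box was not found in that of Ctss. The starts used are those of RefSeq, and other annotations differ. The Ctsd site at bases -98 to -93 lies inside the span that the deposited table gives Ctsd, 142375911 to 142388038. The Ctsl site lies inside the GENCODE span of Ctsl, which ends at 64370890, but outside its span in the deposited table. A match is a stretch of letters and was not tested for binding.

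Ctse (ENSMUSG00000004552, chromosome 1, 131638306 to 131675505, plus strand, GRCm38) encodes the aspartic protease cathepsin E. It had 2437 counts in CTRL_1, 1441 in CTRL_2 and 181 in CTRL_3, which is 129, 78.5 and 10.7 CPM. The exact 95% Poisson intervals, which cover counting error alone and are no test, were 124 to 134, 74.5 to 82.7 and 9.22 to 12.4 CPM. CTRL_1 was high, CTRL_2 was intermediate and CTRL_3 stood far below both. The mean was 72.7 CPM ± 59.3 (SD, n = 3), a coefficient of variation of 81.6%.

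The highest library held 12.0 times the Ctse level of the lowest, with a 95% interval of 10.3 to 14.1 from counting error alone. The ratio rested on CTRL_3: between CTRL_1 and CTRL_2 it was 1.64. Among the 8944 genes that averaged 10 CPM or more this ratio ranked 11, where the median gene had a ratio of 1.30 and the 95th percentile was 2.24. Of the 10 genes that ranged more widely, 7 were variable segments of antibody genes, and the other three were Gbp2b, an interferon-induced GTPase, Plekhh2 and Eps8l1. The genes next to Ctse in this order were Ighv1-80 at 13.7-fold above it and Igkv6-25 at 10.9-fold below it. Ctse was the widest-ranging cathepsin, and it supplied 18.9%, 14.3% and 1.95% of the summed CPM of the 9 genes in CTRL_1, CTRL_2 and CTRL_3.

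**Figure D1:**
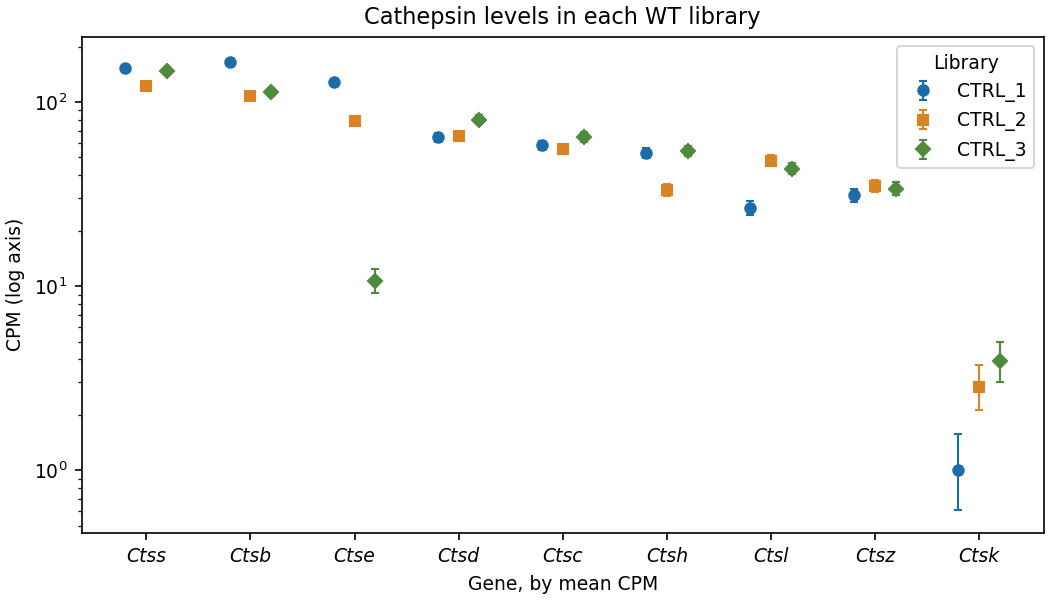
Level of each cathepsin gene in CPM (log axis) in libraries CTRL_1 (circles), CTRL_2 (squares) and CTRL_3 (diamonds), with exact 95% Poisson intervals as bars. Ctse lies at 129 and 78.5 CPM in CTRL_1 and CTRL_2 and at 10.7 CPM in CTRL_3, and Ctsk lies below 5 CPM in all 3.

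**Figure D2:**
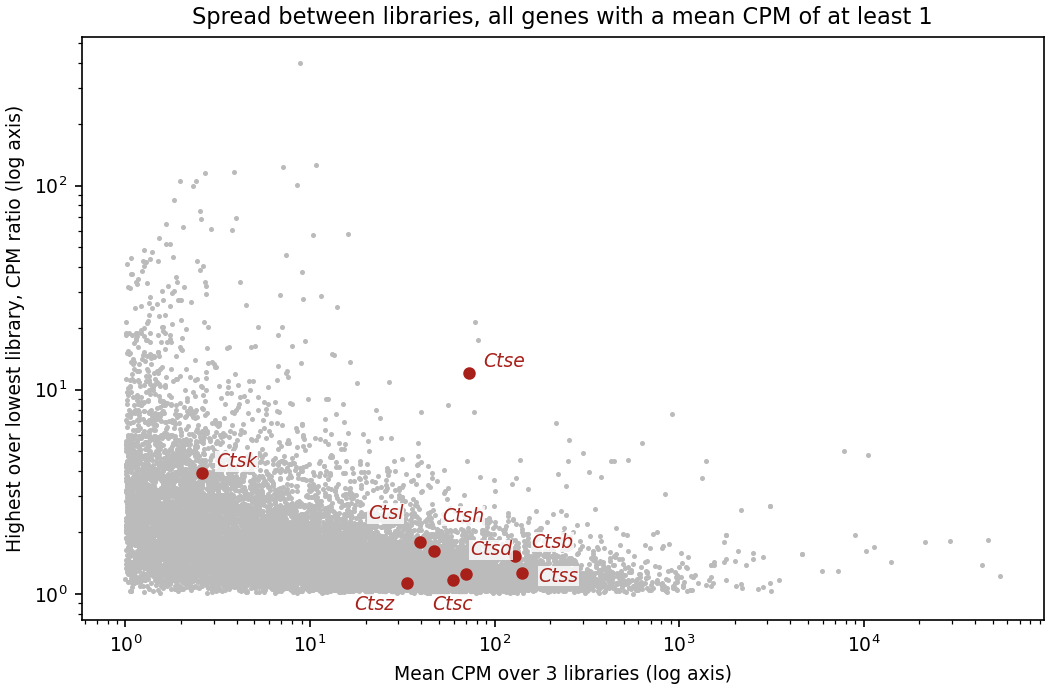
Ratio of the highest to the lowest library (log axis) against the mean CPM (log axis) for the 16897 of 16945 genes averaging at least 1 CPM that had a count in every library (grey), with the 9 cathepsins in red. Ctse stands at 12.0-fold, and the 7 other cathepsins that average at least 10 CPM lie between 1.13-fold and 1.80-fold.

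Ctsd (ENSMUSG00000007891, chromosome 7, 142375911 to 142388038, minus strand) encodes cathepsin D, the aspartic protease of the lysosome. It had 1213, 1196 and 1355 counts in CTRL_1, CTRL_2 and CTRL_3, which is 64.2, 65.2 and 80.3 CPM, with a mean of 69.9 CPM ± 9.03 (SD, n = 3). CTRL_3, the lowest library for Ctse, was the highest for Ctsd. The log2 ratio of Ctse to Ctsd per kilobase of exon was 0.58 in CTRL_1, -0.16 in CTRL_2 and -3.33 in CTRL_3. The mean ratio was -0.97 ± 2.08 (SD, n = 3), so its sign did not hold across the libraries. It was 0.21 without CTRL_3.

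Each gene was also tested for differing between the libraries by more than counting error, with a chi-square test of homogeneity on TMM-scaled library sizes and Benjamini-Hochberg adjustment over 23317 genes. Of all genes tested 70.0% passed at 0.05. Of the 8 cathepsins other than Ctse, 6 passed, which is close to that share. Among the 6669 genes with at least 1000 counts in all, 81.5% passed. Ctsd passed narrowly, with an adjusted p of 0.0059, and it no longer passed without CTRL_3.

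Ctss (ENSMUSG00000038642, chromosome 3, 95526786 to 95556403, plus strand) encodes cathepsin S, the main invariant chain protease of antigen-presenting cells. Its counts were 2896, 2232 and 2473 in CTRL_1, CTRL_2 and CTRL_3, which is 153, 122 and 147 CPM. The mean of 140.5 CPM ± 16.7 (SD, n = 3) was the highest of the 9 genes, and CTRL_2 was the lowest library. The libraries spanned 1.26-fold, less than the median gene, yet by more than counting error (adjusted p = 1.1e-19, chi-square test of homogeneity).

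Ctsl (ENSMUSG00000021477, chromosome 13, 64363214 to 64370306, minus strand) encodes cathepsin L, a lysosomal endopeptidase. It had 504, 882 and 734 counts, which is 26.7 CPM in CTRL_1, 48.1 in CTRL_2 and 43.5 in CTRL_3, with a mean of 39.4 CPM ± 11.3 (SD, n = 3). CTRL_1 was low and the other two were close together. The span was 1.80-fold (adjusted p = 1.8e-21), and 1.10-fold between CTRL_2 and CTRL_3. The annotation gives Ctsl longer exons than the span in the deposited table, which touches every level of it per kilobase.

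Ctsb (ENSMUSG00000021939, chromosome 14, 63122462 to 63145919, plus strand) encodes cathepsin B, an endopeptidase that also trims peptides from their carboxyl end. It had 3114, 1971 and 1916 counts, which is 165 CPM in CTRL_1, 107 in CTRL_2 and 114 in CTRL_3. The mean was 129 CPM ± 31.5 (SD, n = 3), and CTRL_1 stood above the other two. The span was 1.53-fold (adjusted p = 7.4e-86), and without CTRL_1 it was 1.06-fold and did not pass.

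Ctsh (ENSMUSG00000032359, chromosome 9, 90054152 to 90076089, plus strand) encodes cathepsin H, mainly an aminopeptidase. It had 1001, 611 and 914 counts, which is 53.0 CPM in CTRL_1, 33.3 in CTRL_2 and 54.2 in CTRL_3, with a mean of 46.8 CPM ± 11.7 (SD, n = 3). CTRL_2 was the low library. The span was 1.63-fold (adjusted p = 2.1e-21), and without CTRL_2 it was 1.02-fold and did not pass.

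Ctsz (ENSMUSG00000016256, chromosome 2, 174427493 to 174439039, minus strand) encodes cathepsin Z, a carboxypeptidase also called cathepsin X. It had 587, 644 and 572 counts, which is 31.1, 35.1 and 33.9 CPM in CTRL_1, CTRL_2 and CTRL_3, with a mean of 33.3 CPM ± 2.06 (SD, n = 3). No library stood apart, and the span of 1.13-fold was the smallest of the 9 in CPM of the library total. Under TMM scaling the span of Ctsc was smaller, at 1.09-fold against 1.13-fold for Ctsz. Ctsz did not pass the chi-square test of homogeneity on TMM-scaled sizes (adjusted p = 0.118), nor with library totals.

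Ctsc (ENSMUSG00000030560, chromosome 7, 88278085 to 88310888, plus strand) encodes cathepsin C, or dipeptidyl peptidase I, which activates granzymes and other granule proteases. It had 1099, 1016 and 1087 counts, which is 58.2, 55.4 and 64.4 CPM in CTRL_1, CTRL_2 and CTRL_3, with a mean of 59.3 CPM ± 4.64 (SD, n = 3). The libraries lay close together, with a span of 1.16-fold (adjusted p = 0.167). With library totals in place of TMM-scaled sizes Ctsc did pass the test.

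Ctsk (ENSMUSG00000028111, chromosome 3, 95499256 to 95509362, plus strand) encodes cathepsin K, the collagen-degrading protease of osteoclasts. It had 19, 52 and 66 counts, which is 1.01 CPM in CTRL_1, 2.83 in CTRL_2 and 3.91 in CTRL_3. The exact 95% Poisson intervals were 0.605 to 1.57, 2.12 to 3.71 and 3.02 to 4.98 CPM, so CTRL_1 lay below the other two, whose intervals overlapped. The mean of 2.58 CPM ± 1.47 (SD, n = 3) was the lowest of the 9. The span was 3.89-fold (95% interval 2.31 to 6.86, adjusted p = 1.1e-05), and without CTRL_1 it was 1.38-fold and did not pass.

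The library that was highest differed from gene to gene. CTRL_1 was highest for Ctse, Ctss and Ctsb, CTRL_2 for Ctsl and Ctsz, and CTRL_3 for Ctsd, Ctsh, Ctsc and Ctsk. Under TMM scaling CTRL_1 was instead highest for Ctsh, at 55.7 CPM against 50.6 CPM in CTRL_3, and for Ctsc, at 61.2 CPM against 60.2 CPM in CTRL_3. The span of Ctsd narrowed to 1.13-fold under that scaling. Summed over the 9 genes the level was 681, 547 and 551 CPM in CTRL_1, CTRL_2 and CTRL_3, and without Ctse it was 552, 469 and 540 CPM.

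The biological coefficient of variation, estimated per gene by edgeR over the 3 libraries, was 0.594 for Ctse and 0.448 for Ctsk. The other 7 genes lay between 0.146 for Ctsd and 0.213 for Ctsl, all below the 0.266 shared by all genes. Ctse ranked 49 of 16608 genes in this value and Ctsk ranked 702. Both rested on 1 library: without CTRL_3 the value of Ctse was 0.220, ranking 12202 of 16979 genes, and without CTRL_1 that of Ctsk was 0.278, ranking 4389 of 17558.

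Levels of different genes can be compared only per length, and the order below is in CPM per kilobase of exon. Ctss led at 103 ± 12.3 CPM per kilobase (SD, n = 3), followed by Ctsd at 29.7 ± 3.84 and Ctsz at 23.1 ± 1.43. Ctse averaged 22.9 ± 18.7 CPM per kilobase, with 40.7 in CTRL_1, 24.8 in CTRL_2 and 3.38 in CTRL_3. Ctse thus ran above Ctsd in CTRL_1 and below every cathepsin but Ctsk in CTRL_3. Ctsb averaged 21.2 ± 5.21, Ctsh 10.4 ± 2.61, Ctsc 10.2 ± 0.798, Ctsl 6.07 ± 1.74 and Ctsk 1.71 ± 0.971 CPM per kilobase. Of the 8 neighbouring pairs in this order, 5 kept their order in all 3 libraries, and the pairs Ctsz and Ctse, Ctse and Ctsb, and Ctsh and Ctsc did not.

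**Figure D3:**
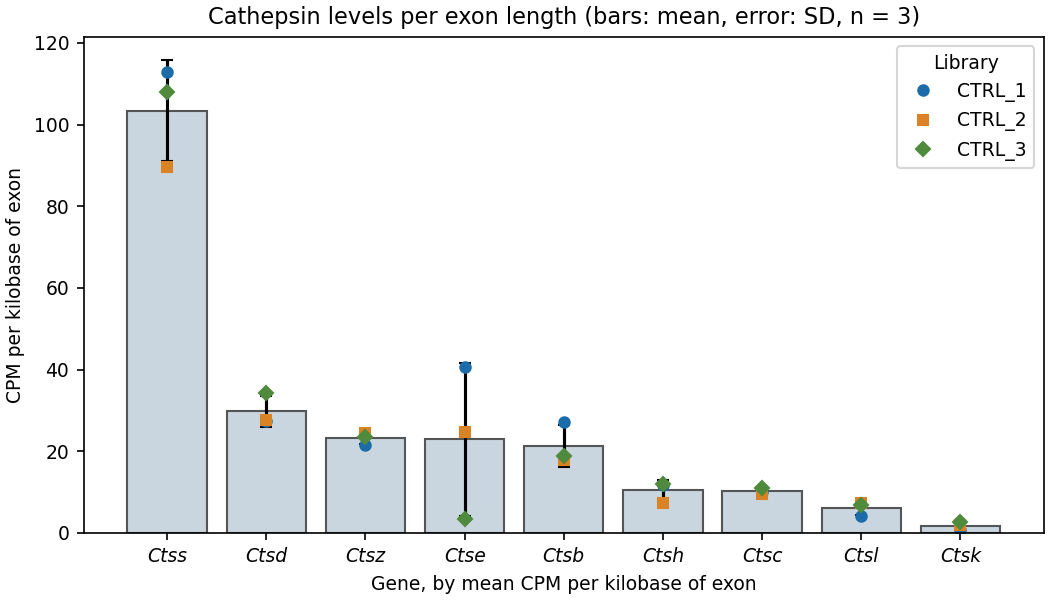
Level of each cathepsin gene in CPM per kilobase of exon (linear axis), in order of the mean, with a point for each library and the mean and SD of 3 libraries. Ctss leads at 103 CPM per kilobase and Ctsk is last at 1.71, while the Ctse libraries run from 40.7 to 3.38.

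The order depended on which bases were counted as length. Per kilobase of coding sequence Ctss averaged 137 CPM, Ctsb 126, Ctse 61.1, Ctsd 56.8, Ctsh 40.4, Ctsc 40.1, Ctsl 39.1, Ctsz 36.3 and Ctsk 2.62. By the mean, Ctss stayed first and Ctsk last under every length tried. Per kilobase of coding sequence Ctss was above Ctsb in 2 of the 3 libraries. Ctsb moved to the second place and Ctsz to the eighth by coding length. With the exons of Ctsl limited to the span in the deposited table, Ctsl averaged 17.6 CPM per kilobase.

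Ratios within a library do not depend on its depth. The log2 ratio of Ctss to Ctsk per kilobase was 7.37, 5.57 and 5.37 in CTRL_1, CTRL_2 and CTRL_3, with a mean of 6.10 ± 1.10 (SD, n = 3), which is 68.7-fold. Ctss exceeded its neighbour in every library, and most in CTRL_1, where Ctsk was low. Against Ctsl, the Ctss log2 ratio was 4.78, 3.60 and 4.01, with a mean of 4.13 ± 0.60 (SD, n = 3), so Ctss was above Ctsl per kilobase in each library. Its size rested on the lengths used, and it was 1.85 by coding bases.

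Between Ctsb and Ctsl the log2 ratio was 2.73, 1.26 and 1.48 in CTRL_1, CTRL_2 and CTRL_3, with a mean of 1.82 ± 0.79 (SD, n = 3). With the shorter Ctsl exons it was 0.29, a move larger than that SD, and this smaller ratio is itself below the SD. The size of the ratio thus rested on the lengths used. Ctsh to Ctsb had log2 ratios of -1.21, -1.26 and -0.64, with a mean of -1.04 ± 0.34 (SD, n = 3), so Ctsh was the lower of the pair in each library. Ctsc to Ctsz had log2 ratios of -1.11, -1.35 and -1.09, with a mean of -1.18 ± 0.15 (SD, n = 3). Its sign turned to 0.14 by coding bases, so these data do not order Ctsc and Ctsz. No ratio carries a test, because the smallest two-sided p that sign flips over 3 libraries can reach in an exact permutation test is 0.25.

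The genes whose pattern over the 3 libraries was nearest to that of Ctse were sought among genes averaging at least 10 CPM, by the Euclidean distance between centred log2 levels. The nearest was Bpifa1, a secreted protein of the upper airway epithelium, at a distance of 0.740, with 99.2, 117 and 15.1 CPM in CTRL_1, CTRL_2 and CTRL_3. Bpifb1, of the same family, followed at a distance of 1.30 with 38.2, 33.7 and 11.1 CPM. Scgb3a1, an airway secretoglobin, was at 1.32 with 62.4, 49.7 and 18.2 CPM. All of these airway genes were lowest in CTRL_3, as Ctse was, which follows from choosing them by their likeness to Ctse. The ratio of the next library to CTRL_3 was 7.32 for Ctse. The remaining genes were Igkv6-13, an antibody segment, at 1.34 with 12.6, 19.9 and 3.56 CPM, and Gbp2b at 1.36 with 24.0, 23.5 and 0.415 CPM. The distances rest on 3 libraries.

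**Figure D4:**
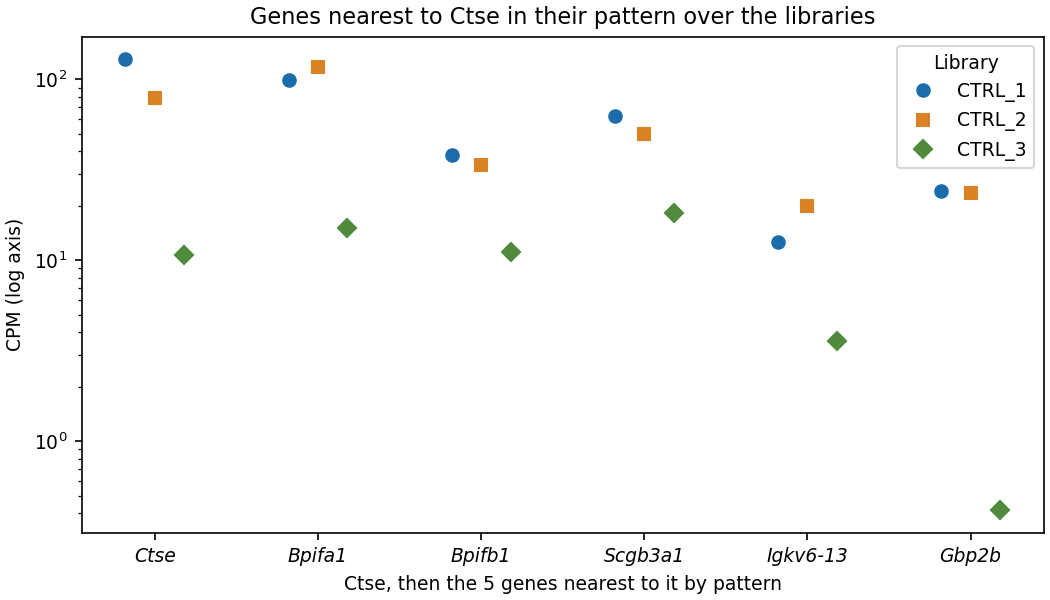
Level in CPM (log axis) of Ctse and of the 5 genes nearest to it in pattern, with a point for each library. All 6 genes are lowest in CTRL_3, as the choice by likeness to Ctse favours, with Ctse at 10.7 CPM and Bpifa1 at 15.1 CPM there.

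The airway secretory list as a whole did not follow Ctse. Its 12 genes all had a mean CPM of at least 1, and none was at 0 in any library. Its sum was lowest in CTRL_2, at 3012 CPM, and was dominated by Scgb1a1, the main club cell secretoglobin, at 13192, 2632 and 7641 CPM in CTRL_1, CTRL_2 and CTRL_3. Within it 5 of 12 genes were lowest in CTRL_3, namely Bpifa1, Scgb3a1, Bpifb1, Muc5ac and Agr2, and 3 of those ran in the same order as Ctse over the libraries. Among the 16945 genes that averaged at least 1 CPM, 3142 (18.5%) were lowest in CTRL_3 and 1835 (10.8%) ran in the order of Ctse. Cathepsin E is also known from immune cells and red cells. Of the 9 T cell and natural killer genes, 6 were lowest in CTRL_3, namely Il7r, Cd3e, Cd4, Trac, Cd8a and Cd3d, and 4 ran in the order of Ctse. Nkg7, Ncr1 and Klrb1c of that list went the other way, highest in CTRL_3 and lowest in CTRL_1. Of the 11 alveolar type 2 genes, 4 were lowest in CTRL_3, all of them in the order of Ctse. The B cell list summed highest in CTRL_3, the 9 T cell and natural killer genes summed to 918, 910 and 813 CPM, the 9 dendritic cell genes to 235, 303 and 265 CPM, and the 5 red cell genes to 425, 1924 and 646 CPM. The part of any of these cells in the Ctse range was not tested.

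Nearest to Ctsk in pattern, at larger levels, were KIAA1683, Camk2b, Adamts2, Loxl1 and Slc5a3. Adamts2, a procollagen-processing protease, had 10.4, 24.0 and 34.6 CPM in CTRL_1, CTRL_2 and CTRL_3, and Loxl1, an elastin and collagen crosslinking enzyme, had 9.42, 21.03 and 25.8 CPM. Both were lowest in CTRL_1, as Ctsk was, which follows from choosing them by their likeness to Ctsk. The 10 fibroblast genes, all detected in every library, summed to 440.0, 1011 and 988 CPM, and 9 of the 10 were lowest in CTRL_1, all but Npnt. So were 9 of 11 smooth muscle genes, all 8 B cell genes and all 8 MHC class II genes, against 0 of 8 endothelial genes. The share of all genes that were lowest in CTRL_1 is not given here. The part of fibroblasts or of other cells in the Ctsk range was not tested. Nearest to Ctsh were Twf1, Hs2st1, Nfil3, Wdr13 and Irgm1. Nearest to Ctss were Ptpn23, Nol11, Vamp4, Pxdc1 and Amotl2, and nearest to Ctsc were Gmfb, Arf2, Trap1, Dusp11 and Prps1.

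**Figure D5:**
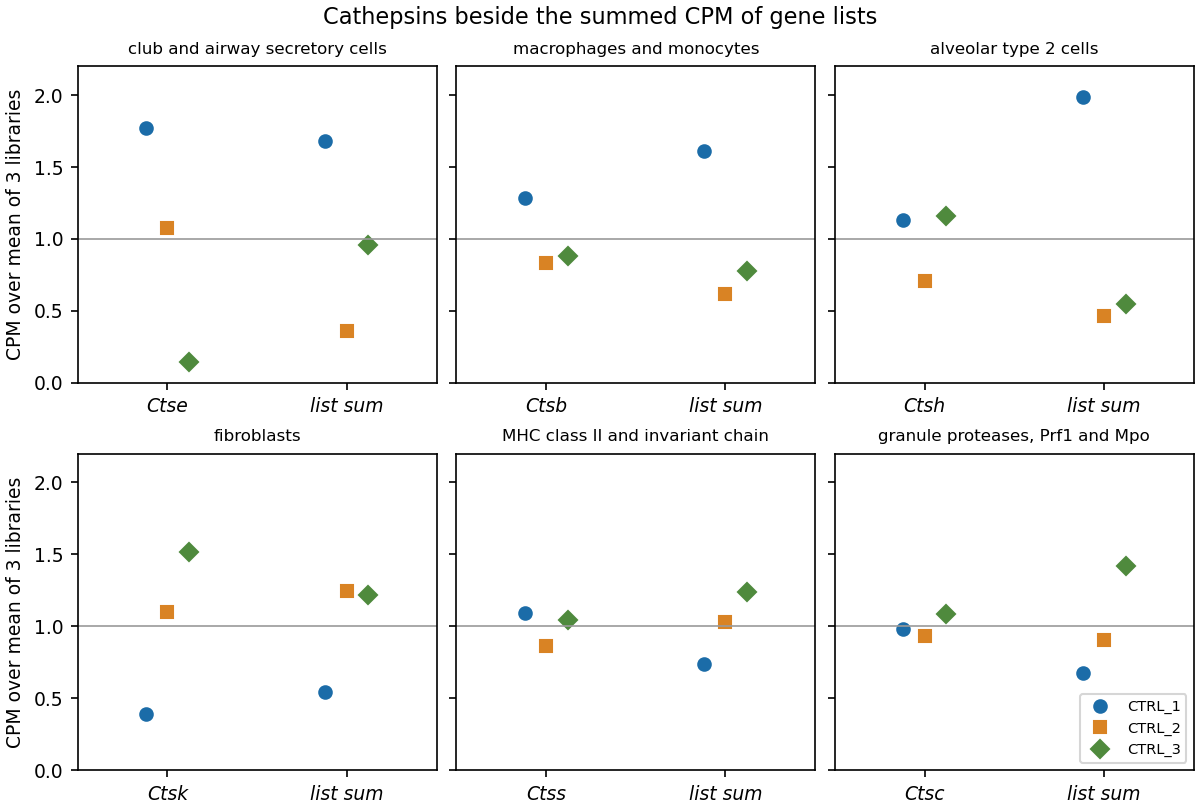
A cathepsin gene beside the summed CPM of a list of genes in 6 panels, each value divided by its mean over the 3 libraries. Ctsb and the macrophage and monocyte list are both highest in CTRL_1, where the alveolar type 2 and airway secretory lists are highest as well. Ctsk and the fibroblast list are both lowest in CTRL_1, as are the MHC class II and granule lists. Ctse and the airway secretory list have their lowest value in different libraries.

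Ctsb was highest in CTRL_1, as was the sum of the 16 macrophage and monocyte genes at 1028, 393 and 495 CPM. This was not particular to that list. The sums of endothelium at 982, 504 and 670 CPM, of alveolar type 2 cells and of other lists were highest in CTRL_1 as well. The sums of B cells, fibroblasts and further lists were lowest there. In the macrophage and monocyte list, Lyz2, lysozyme, had 704, 189 and 235 CPM. Csf1r, the receptor for macrophage colony-stimulating factor, had 96.4, 23.8 and 40.4 CPM. Ly6c2, the next highest member, went the other way, with 38.4, 39.4 and 50.8 CPM. In all, 8 of the 16 macrophage and monocyte genes were highest in CTRL_1, 3 in CTRL_2 and 5 in CTRL_3, and 7 were lowest in CTRL_1. The part of these cells in the Ctsb range was not tested. The 11 alveolar type 2 genes summed to 2427, 570 and 673 CPM in CTRL_1, CTRL_2 and CTRL_3. Ctsh and this sum were both lowest in CTRL_2, but Ctsh was about as high in CTRL_3 as in CTRL_1. Under TMM scaling Ctsh was at 55.7, 33.9 and 50.6 CPM, highest in CTRL_1. The sum was led by Sftpc, at 1352, 246 and 284 CPM. Members of the list differed: 5 of the 11 were lowest in CTRL_2, 4 in CTRL_3 and 2 in CTRL_1. The share of all genes lowest in CTRL_2 is not given here. The part of these cells in the Ctsh range was not tested. Napsa, the aspartic protease of type 2 cells that shares surfactant protein processing with cathepsin H, had 29.4, 34.2 and 38.1 CPM.

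The 8 genes of the MHC class II pathway, where cathepsins S and L act, were all above a mean of 10 CPM and summed to 1466, 2047 and 2463 CPM in CTRL_1, CTRL_2 and CTRL_3. Cd74, the invariant chain itself, had 773, 1060 and 1227 CPM. H2-Ab1 had 256, 346 and 416 CPM, and H2-Oa, an inhibitor of peptide loading, was the lowest member at 6.14, 12.0 and 13.6 CPM. The sum was lowest in CTRL_1, where Ctss was highest and Ctsl was lowest.

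Of 12 granule genes, most of them substrates of cathepsin C, 6 had a mean CPM of at least 1, and Elane and Mcpt4 were at 0 in every library. The granzymes Gzma and Gzmb had 148, 225 and 359 CPM and 78.4, 81.5 and 137 CPM in CTRL_1, CTRL_2 and CTRL_3, and the pore-forming protein gene Prf1 had 49.9, 69.8 and 94.3 CPM. The list summed to 292, 390 and 615 CPM, highest in CTRL_3, while Ctsc spanned 1.16-fold.

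Of 15 further cathepsin family genes, 5 had a mean CPM of at least 1. Ctsa, a carboxypeptidase that also protects other lysosomal enzymes, had 54.5, 52.9 and 53.1 CPM in CTRL_1, CTRL_2 and CTRL_3. Ctsw, a cathepsin of cytotoxic lymphocytes, had 33.1, 37.1 and 47.1 CPM, and Ctso had 14.4, 24.3 and 27.5 CPM. Ctsa was nearly level and the other two were highest in CTRL_3. In all, 7 of the list, the placental and related cathepsins Ctsj, Ctsm, Ctsq, Ctsr, Cts6, Cts7 and Cts8, were at 0 in every library.

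Among 24 genes of cystatins, serpins and related inhibitors, 11 had a mean CPM of at least 1, and their sum was 340.3, 307 and 450.1 CPM in CTRL_1, CTRL_2 and CTRL_3. Cst3, which encodes the secreted inhibitor cystatin C, had 116, 66.7 and 94.98 CPM. Serpinb9, an inhibitor of granzyme B, had 46.4, 77.2 and 120 CPM, and Serpinb6b had 33.7, 45.0 and 63.8 CPM. Cst3 was highest in CTRL_1, and both serpins were highest in CTRL_3.

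Of 20 genes of lysosomal sorting and its regulation, 19 had a mean CPM of at least 1, and they summed to 1071, 973 and 1085 CPM. Psap, the saposin precursor, had 303, 232 and 228 CPM in CTRL_1, CTRL_2 and CTRL_3. Igf2r, the large mannose 6-phosphate receptor, had 105, 104 and 106 CPM, and Lamp1, a lysosomal membrane protein, had 107, 92.7 and 101 CPM. The sum and the receptor were nearly level across the libraries. Tfec, a relative of TFEB, was the lowest member at 0.688, 1.20 and 0.652 CPM.

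Some of these counts may hold reads of overlapping genes, since the sources used here do not give the strand setting of the counting. Ctsb shares 774 exon bases with Fdft1 on the opposite strand, which had 298, 228 and 217 counts. Ctsl, by the longer exons of the annotation, shares 1742 bases with the antisense gene Gm47123 and 395 with the pseudogene Gm49230 on its own strand, neither of which was matched to the table. Ctsd shares 808 exon bases with Gm49369 on the same strand, which was listed with 0 counts in each library, and 32.4% of its 50-base words occur in another gene's transcripts. In Ctsl 6.46% of such words are shared, in Ctsc 0.448%, and in the other 6 cathepsins none. No cathepsin had the same counts as another gene.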

How the data were processed

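Cells sorted from mouse lung were measured by RNA-seq in 3 WT libraries, made with a stranded kit for total RNA, per the labels' protocols. The authors deposited raw counts of reads per gene as whole numbers, with no normalization. FastQC, Trimmomatic 0.38, STAR 2.6.1d, featureCounts 1.6.3 and DESeq2 1.18.1 are named, and human builds listed, per the submitters' processing notes, but the gene IDs are mouse. Of 48349 IDs found in GENCODE M21 (GRCm38), 42754 had identical coordinates. Columns name controls and titles name WT, the one group, so no column was tied to a title.

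CPM used the library total, and exon lengths were unions of GENCODE exons. Homogeneity was tested with a chi-square test on TMM-scaled library sizes for genes with at least 10 counts, and dispersion was estimated with edgeR 4.0.16 (R 4.3.3) with an intercept alone. The homogeneity test was tried on simulated data. Ratios used a pseudocount of 0.5 counts, and likeness one of 0.5 CPM. Reads without molecular identifiers are not independent molecules, so intervals and limits cover counting error only. Library pairs differed at 41.3% to 57.1% of genes, so none was a duplicate.

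The cathepsins and lists were chosen with earlier results of these data known. Genes named were the 9 cathepsins, the 5 genes nearest in pattern to Ctse, Ctsh, Ctsk, Ctss and Ctsc, and from each list its lowest member and up to 3 of its highest; other list members, and the genes that range more widely than Ctse, were named after their values were seen. Alternatives were other scalings, denominators, lengths, pseudocounts and filters, and leaving out each library.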

Additional observations from a re-analysis of the deposited data

How the results depend on the processing

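The groups of alternatives were TMM and DESeq2 1.42.0 size factors, a protein-coding denominator, other lengths, pseudocounts and count filters, and each library left out in turn; lengths limited to coding bases or to the table span of Ctsl were chosen after seeing the data in the pair ratios. Per protein-coding count the summed level of the 9 cathepsins was 1001 CPM. The Ctse ratio of highest to lowest library lay between 1.64 and 12.0 with a library left out. Without division by length, 5 of 8 neighbouring pairs kept their order. The genes that varied beyond counting error numbered 8275 to 12273 with a library left out. The log2 ratio of Ctss to Ctsl was 1.87 without length, 1.85 by coding bases and 2.595 by the table span, that of Ctsb to Ctsl was 0.29 by the table span, and that of Ctsh to Ctsb was -1.46 without length and -1.65 by coding bases. Ctsc to Ctsz reversed, to 0.83 without length and 0.14 by coding bases, which follows from the lengths given to them. Of the 8 cathepsins other than Ctse, 7 passed the homogeneity test with library totals and 4 to 5 with a library left out. The log2 ratio of Ctse to Ctsd turned from negative to 0.21 without CTRL_3, a move smaller than its SD. With that value, 64 values computed for these results under alternatives stayed within the spread or count limits set. Among values of single genes and lists, 218 stayed within those limits and 20 moved. The biological coefficient of variation of Ctse was 0.220 without CTRL_3 and that of Ctsk was 0.278 without CTRL_1. Depth limited Ctsk most, with 19 counts in CTRL_1.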
